A study of Danio rerio with 340 samples.

Results

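The genes described here are 35 genes of DNA repair and of the replication checkpoint, chosen by symbol and grouped by role: recombination and end processing (8 genes), the Fanconi anemia pathway (9), mismatch repair (1), checkpoint signalling (13) and base and nucleotide excision repair (4). Of these, 33 had a row among the 31658 genes of the deposited table, and the checkpoint genes clspn and hus1 were not analysed here. RNA of single whole zebrafish larvae at 5 dpf (days post-fertilization) was sequenced from transcript 3′ ends by Lasy-Seq, with an index for each larva added at reverse transcription. Embryos were placed in the compound at 5 to 6 hpf (hours post-fertilization) and stayed in it until collection. Hydroxyurea was tested in AB, TU, RW and PET, with 24 larvae at 0, 26 at 1.3 mM, 28 at 6.6 mM and 26 at 33 mM. Valproic acid was tested in AB, TU, RW, WIK and PET, with 8 larvae of each strain at each of 0, 1, 5 and 20 µM. Warfarin was tested in AB, TU, RW and PET, with 25 larvae at 0, 26 at 150 µM and 25 at 300 µM. The PET fish were bought at a pet store and did not have the controlled breeding of laboratory stocks. The other strains are laboratory strains. The strain is the only genetic difference that the labels give between larvae. Each strain was exposed in 1 biological replicate, so strain and clutch cannot be told apart, and a p-value measures the spread between larvae of 1 exposure. The doses of an experiment were compared with the same untreated larvae, so these comparisons are not independent of each other.

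Cells copy their DNA at replication forks, and a stalled or broken fork is sensed by the kinase ATR, which binds single-stranded DNA through its partner ATRIP and, once activated by TOPBP1, switches on the kinase CHK1 (chek1). The 9-1-1 clamp (rad9a, rad1 and hus1), loaded with the help of RAD17, and the fork protection pair timeless and tipin assist this step, while ATM and CHK2 (chek2) answer mainly to double-strand breaks. Broken forks are mended by recombination, interstrand crosslinks by the Fanconi proteins, and mispaired or damaged bases by the mismatch and excision pathways. Hydroxyurea blocks ribonucleotide reductase and so depletes the building blocks of DNA, valproic acid is an antiepileptic drug that inhibits histone deacetylases, and warfarin is an anticoagulant that blocks the recycling of vitamin K. The roles given below are those known from human and yeast cells.

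Total counts per larva ranged between 124136 and 14186334, with a median of 2272278. Depth differed between strains, so a comparison of strains is also one of depth. Median totals ran from 1053357.5 in PET to 6718419.5 in RW for valproic acid and from 858849.5 in AB to 3375084 in TU for hydroxyurea. For warfarin they ran from 1059273 in TU to 3131366 in AB. Single members were therefore shallow in single larvae: over the 26 larvae at 33 mM of hydroxyurea, exo1 had 493 counts in all and bard1 had 6, and over the 24 untreated larvae exo1 had 159 and bard1 8. A filter on low counts kept 25 members for the test over strains in the hydroxyurea experiment, 29 in the valproic acid experiment and 19 in the warfarin experiment. The filter took all doses together, so a gene low at 0, such as blm or fancl under hydroxyurea, could pass through dosed larvae alone. A rise of such a gene is then partly set by the filter. Below, a level is a normalised read count scaled to library size within the experiment (CPM), a change is a log2 fold change with its standard error (SE), and a gene is called changed at an adjusted p under 0.05 (edgeR, quasi-likelihood test, adjusted by Benjamini-Hochberg over all genes tested). Shares of all genes called refer to these edgeR tests. Counts of members under DESeq2 or another changed setting have no share of all genes beside them. Markers of muscle, liver, heart, exocrine pancreas, skin, red blood cells, gut, lens, neurons and photoreceptors were found in all 340 larvae. In whole larvae, fewer cells that express a gene and less RNA per cell cannot be told apart.

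Most members tested rose at 33 mM of hydroxyurea, and the largest change was that of the recombination gene exo1. The members' summed level was between 213 and 297 CPM in the 26 larvae at 33 mM (median 245 CPM), against 114 to 203 CPM in the 24 untreated larvae (median 164 CPM). Every larva at 33 mM lay above every untreated larva, with no overlap. The dose series had medians of 164 CPM at 0, 178 CPM at 1.3 mM, 196 CPM at 6.6 mM and 245 CPM at 33 mM, and at 6.6 mM 9 of 28 larvae lay above the highest untreated larva. Within strains, the lowest larva at 33 mM stood above the highest at 0 in AB (218 against 194 CPM), TU (213 against 203 CPM), RW (230 against 189 CPM) and PET (227 against 178 CPM).

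**Figure D1:**
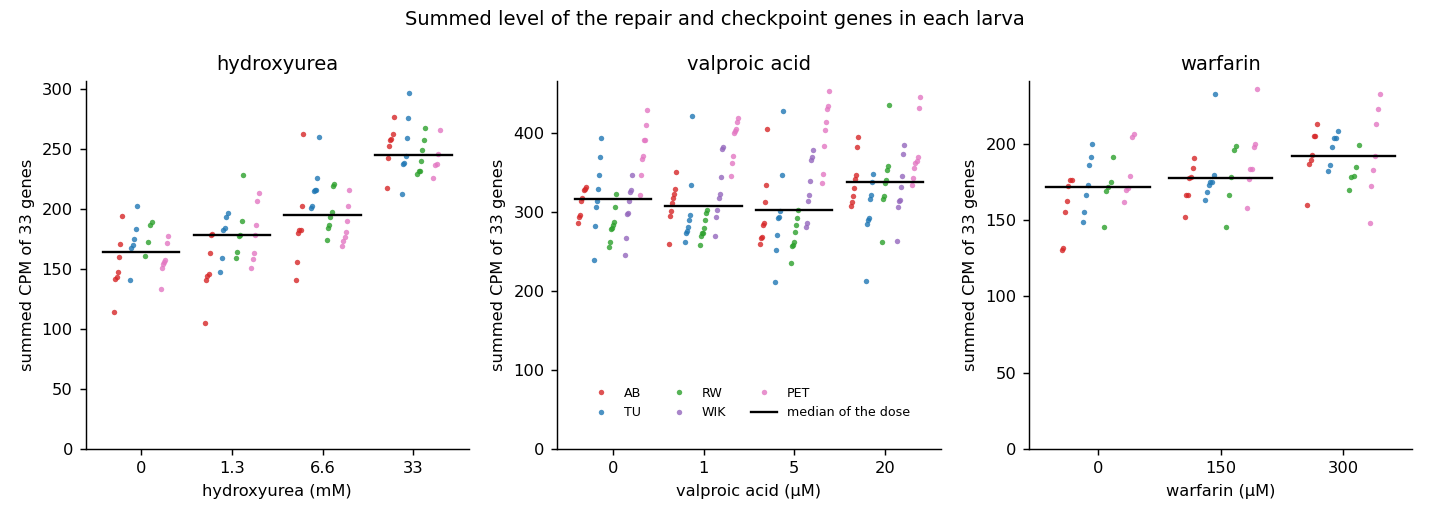
Summed level of the 33 members (CPM, vertical axis from 0) in each larva by dose (horizontal axis, µM or mM), with 1 panel per compound, 1 colour per strain and a black line at the median of a dose. In the hydroxyurea panel all 26 larvae at 33 mM lie above all 24 untreated larvae, whereas the doses overlap in the valproic acid and warfarin panels.

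At 33 mM of hydroxyurea, 16 of the 25 members tested rose and 0 fell, while 10.3% of all 15042 genes tested rose (22.8% called in either direction). At an unadjusted p under 0.05, 18 members were higher and 0 lower (2352 and 2514 of the 15042 genes), and DESeq2 called 18 (share of all genes not given). The median log2 fold change was 0.70 over the members and 0.02 over all genes tested. A positive value was found for 24 of 25 members and for 7888 of 15042 genes. Without the PET larvae 22 members were tested and 9 were called, all 9 of them among the 16 (share of all genes not given). Of the other 7, blm, palb2 and atr were then too low to be tested, and chek2, rad1, topbp1 and xrcc1 were tested and not called. The markers of proliferating cells moved with the members: the summed level of pcna, mki67, top2a and mcm5 was 342 to 641 CPM at 33 mM, against 156 to 328 CPM at 0. The 8 markers of the exocrine pancreas moved the other way, with 171 to 2091 CPM at 33 mM, against 3366 to 9222 CPM at 0. The median total count was 1825796 at 33 mM, against 2698895.5 at 0. The part of these in the result was not tested, except that 14 members were called with the total count as a covariate.

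Among the genes of recombination and end processing, 5 of the 6 tested rose at 33 mM, with a median log2 fold change of 1.44. The gene with the largest change of all members was exo1, which encodes a nuclease that trims DNA ends at breaks and mismatches. It had a median of 9.02 CPM (2.21 to 16.9 CPM) at 33 mM, against 2.18 CPM (0 to 7.52 CPM) at 0, and 19 of 26 larvae lay above every untreated larva. Its log2 fold change was 2.00 (SE 0.28, adjusted p = 2.13e-09, edgeR), a fold of 4.01.

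The helicase gene blm, whose product dissolves recombination intermediates, had a median of 2.94 CPM (0.594 to 7.75 CPM) at 33 mM, against 0.638 CPM (0 to 4.21 CPM) at 0. It was counted in 26 of 26 larvae at 33 mM and in 15 of 24 at 0, and its log2 fold change was 1.67 (SE 0.34, adjusted p = 3.9e-05, edgeR). This value includes AB, where few untreated larvae had a count, as described below. In the 12 alternatives that could test blm, its log2 fold change was between 1.12 and 1.84. The highest adjusted p of blm among them was that without the AB larvae (adjusted p = 0.0099, edgeR). For brca2, a mediator of recombination, the median was 5.65 CPM (0.374 to 17.7 CPM) at 33 mM, against 1.91 CPM (0 to 7.10 CPM) at 0, with overlap of the groups. Its log2 fold change was 1.55 (SE 0.29, adjusted p = 7.18e-06, edgeR).

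The partner of BRCA2 encoded by palb2 had a median of 2.75 CPM (0 to 12.3 CPM) at 33 mM, against 1.21 CPM (0 to 5.86 CPM) at 0, and its log2 fold change was 1.34 (SE 0.35, adjusted p = 0.00166, edgeR). For rad54l, a motor protein of recombination, the median was 5.67 CPM (0 to 20.3 CPM) at 33 mM, against 2.67 CPM (0.680 to 8.09 CPM) at 0, and its log2 fold change was 1.20 (SE 0.27, adjusted p = 0.000197, edgeR). In both genes the groups overlapped, and 6 larvae for palb2 and 8 for rad54l lay above every untreated larva. The sensor gene nbn, whose product acts with RAD50 and MRE11 at breaks, did not pass the test, at a log2 fold change of 0.08 (SE 0.28). The low counts of rad50 and of bard1, the partner of BRCA1, kept both out of this test.

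Of the Fanconi genes, 4 were tested and 1 rose. This was fancd2, which with FANCI forms the clamp that is ubiquitinated at crosslinks, and its median was 3.897 CPM (0 to 16.0 CPM) at 33 mM, against 1.92 CPM (0 to 6.02 CPM) at 0. Its log2 fold change was 1.30 (SE 0.36, adjusted p = 0.00342, edgeR), and the call was lost without the TU larvae (log2 fold change 0.75, adjusted p = 0.219, edgeR). The log2 fold changes of fanci (0.68, SE 0.31), fancg (0.70, SE 0.36) and fanca (0.19, SE 0.17), of which fancg and fanca belong to the core complex that ubiquitinates the clamp, did not pass. The other core genes fancb, fancc, fancf, fancl and fancm were too low to be tested over strains.

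The mismatch repair gene msh6, which encodes a subunit of the complex that recognises mispaired bases, had a median of 11.5 CPM (2.21 to 17.3 CPM) at 33 mM, against 4.76 CPM (0 to 15.9 CPM) at 0. The groups overlapped, with 2 of 26 larvae above every untreated larva, and the log2 fold change was 0.92 (SE 0.23, adjusted p = 0.00105, edgeR).

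Among the checkpoint genes, 7 of the 10 tested rose, with a median log2 fold change of 0.61. The effector kinase gene chek1 had a median of 7.56 CPM (1.14 to 17.1 CPM) at 33 mM, against 4.39 CPM (1.99 to 14.8 CPM) at 0, and its log2 fold change was 0.91 (SE 0.22, adjusted p = 0.000781, edgeR). For chek2 the median was 4.69 CPM (0 to 13.4 CPM) at 33 mM, against 2.67 CPM (0 to 5.66 CPM) at 0, and its log2 fold change was 0.83 (SE 0.25, adjusted p = 0.00880, edgeR). The groups overlapped for both kinases. Without the TU larvae the call of chek1 was only just kept (adjusted p = 0.0498, edgeR). The call of chek2 was lost without the PET larvae (adjusted p = 0.0827, edgeR), without the RW larvae and without the larvae numbered 2.

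The sensor kinase gene atr had a median of 1.72 CPM (0 to 11.4 CPM) at 33 mM, against 1.48 CPM (0 to 5.56 CPM) at 0, and 5 of 26 larvae lay above every untreated larva. Its log2 fold change was 1.00 (SE 0.38, adjusted p = 0.0418, edgeR), and it was called in 6 of the 10 alternatives that could test it. The highest adjusted p among these was that with the total count as a covariate (adjusted p = 0.126, edgeR). The adaptor gene topbp1 was likewise near the threshold, at a log2 fold change of 0.66 (SE 0.24, adjusted p = 0.0317, edgeR), and was called in 9 of 18 alternatives.

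The fork protection gene timeless had a median of 13.3 CPM (3.55 to 29.9 CPM) at 33 mM, against 8.45 CPM (2.01 to 15.4 CPM) at 0, and its log2 fold change was 0.71 (SE 0.17, adjusted p = 0.000453, edgeR). Its partner tipin rose by a log2 fold change of 0.57 (SE 0.15, adjusted p = 0.00238, edgeR), and the call was lost without the RW larvae (adjusted p = 0.0566, edgeR). Of the clamp and its loader, rad1 was called higher (0.39, SE 0.12, adjusted p = 0.00813, edgeR), a call lost without the PET larvae, without the TU larvae and without the larvae numbered 5 (adjusted p = 0.098, edgeR), while rad9a (0.37, SE 0.29) and rad17 (−0.46, SE 0.27) did not pass. The ATR partner gene atrip (0.43, SE 0.29) did not pass either. The gene rad17 was the single member tested with a negative value, and without larvae of a low total count it was called lower (−0.79, adjusted p = 0.0181, edgeR). That alternative left out many larvae of AB, the shallowest strain of this experiment. The double-strand break kinase gene atm was too low to be tested over strains.

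Of the excision genes, 2 of 4 rose. The gene ddb2, whose product finds ultraviolet lesions, had a median of 21.9 CPM (0.726 to 53.4 CPM) at 33 mM, against 7.82 CPM (0.823 to 31.5 CPM) at 0, and the groups overlapped over nearly their whole range. These medians pool strains whose untreated levels of ddb2 differed, as described below, and the mix of strains was not the same. RW had 4 larvae at 0 and 7 at 33 mM, and PET had 7 at 0 and 5 at 33 mM. With strain as a term, the log2 fold change of ddb2 was 0.74 (SE 0.18, adjusted p = 0.00106, edgeR). This call was lost without the AB larvae (adjusted p = 0.0545, edgeR). The single-strand break scaffold gene xrcc1 rose by a log2 fold change of 0.46 (SE 0.15, adjusted p = 0.0155, edgeR), and the call was lost without the PET larvae (adjusted p = 0.123, edgeR) and without the larvae numbered 4 or 5. The changes of parp1 (0.28, SE 0.13), a sensor of strand breaks, and of xpc (0.19, SE 0.16), a sensor of distorted DNA, did not pass.

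**Figure D2:**
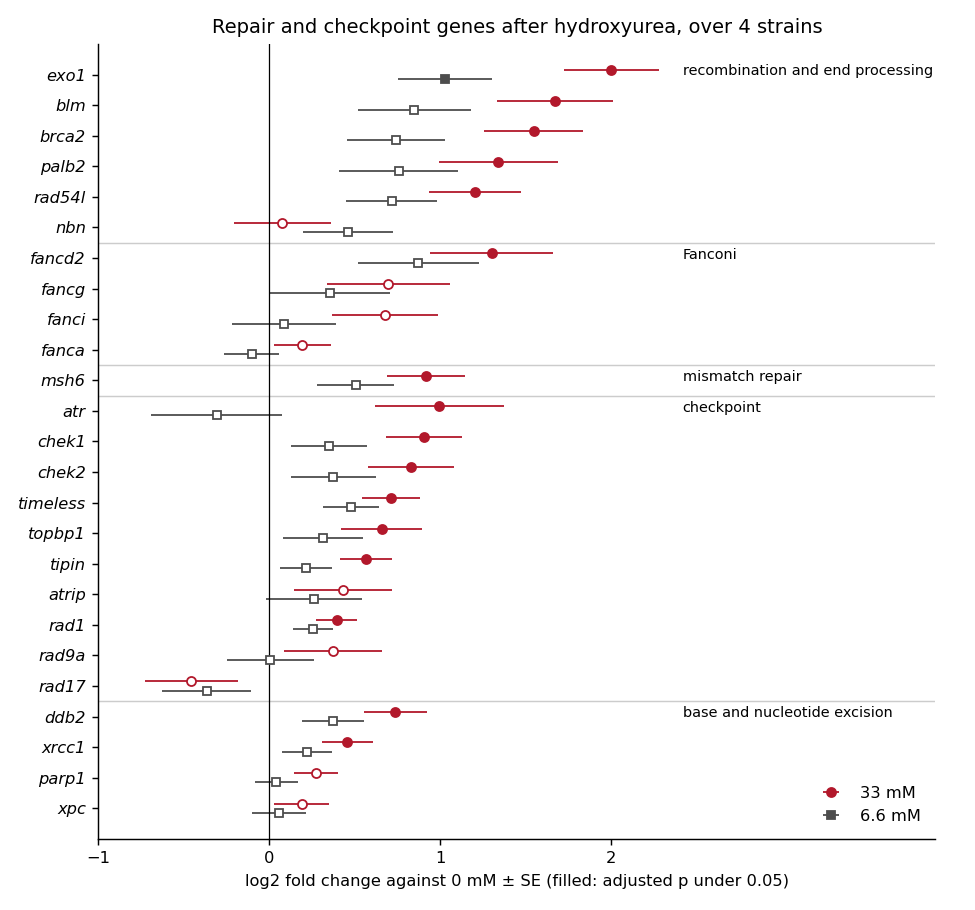
Log2 fold change against untreated larvae (horizontal axis, ± SE) of the 25 members tested over the 4 strains, by role, at 33 mM (red circles) and 6.6 mM (grey squares) of hydroxyurea, with filled symbols for an adjusted p under 0.05. The 16 filled circles lie to the right of 0 and exo1 reaches 2.00, whereas exo1 is the only filled square.

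The plot of single larvae shows how far the groups overlapped for 6 of the members. Of the 24 untreated larvae, 9 had no count of blm and 1 each had none of exo1, brca2 and msh6, whereas timeless and chek1 were counted in all 24.

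**Figure D3:**
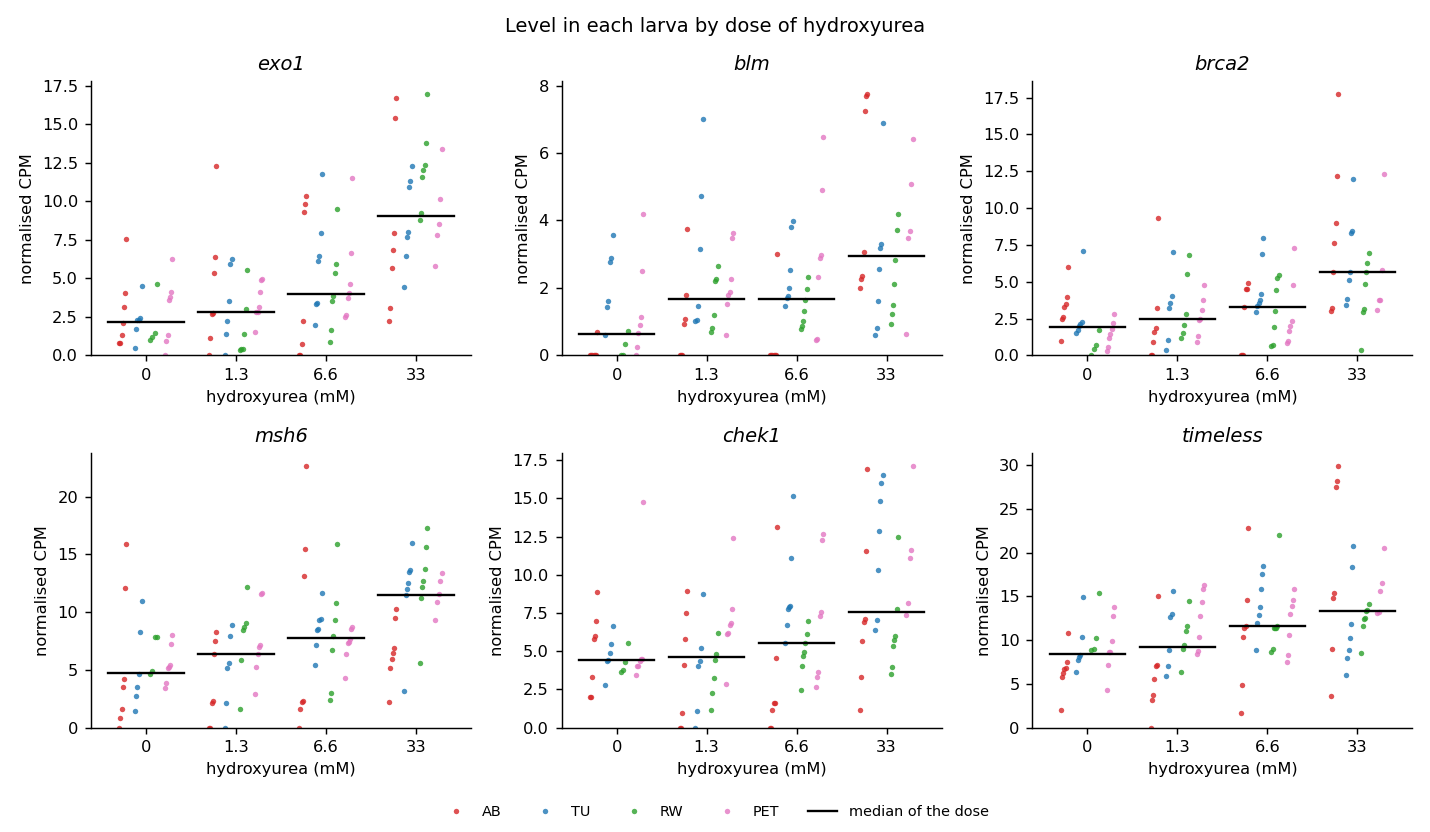
Normalised CPM (vertical axis from 0) of exo1, blm, brca2, msh6, chek1 and timeless in each larva by dose of hydroxyurea (horizontal axis, mM), coloured by strain, with a black line at the median of a dose. The medians at 33 mM lie above those at 0 in all 6 panels, and exo1 has 19 of 26 larvae above every untreated larva.

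At 6.6 mM, 1 of the 25 members was called, against 0.618% of all genes called higher (1.15% in either direction). This was exo1, with a median of 3.96 CPM (0 to 11.8 CPM) at 6.6 mM, against 2.18 CPM (0 to 7.52 CPM) at 0, and a log2 fold change of 1.03 (SE 0.28, adjusted p = 0.0307, edgeR). At an unadjusted p under 0.05, 10 members were higher and 0 lower (576 and 749 of 15042 genes), and DESeq2 called 1. The median over members was 0.35, against −0.01 over all genes tested. The call of exo1 was lost without the PET, RW or TU larvae. At 1.3 mM, edgeR and DESeq2 called 0 members (0.00665% of genes called). An unadjusted p under 0.05 was found for 2 members, blm and chek2, and for 604 of 15042 genes. Between 33 and 6.6 mM, 4 members were higher at the higher dose (8.12% of genes higher, 18.2% in either direction): atr (1.30, SE 0.37, adjusted p = 0.00539, edgeR), exo1 (0.97, SE 0.25, adjusted p = 0.00159, edgeR), brca2 (0.80, SE 0.27, adjusted p = 0.0210, edgeR) and chek1 (0.56, SE 0.21, adjusted p = 0.0481, edgeR). Without the PET larvae, or without the RW larvae, 1 member was called.

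Each strain was then tested alone at 33 mM, with 31 members tested and 4 to 7 larvae in a group. In AB 4 members rose (2.49% of genes higher, 7.24% in either direction): blm, fancl, timeless and ddb2. In TU 3 rose (2.15% and 6%): exo1, fancd2 and chek1. In RW 4 rose (2.19% and 6.13%): exo1, brca2, blm and tipin. In PET 2 rose (3.66% and 9.42%): exo1 and brca2. With the total count as a covariate the calls of exo1 and chek1 in TU and of exo1 in PET were lost. Without larvae of a low total count those of fancl and ddb2 in AB and of brca2 and blm in RW were lost. The AB median total of 858849.5 lay under the cut for a low total, so that alternative left out many AB larvae. In these 4 strains edgeR called 0 members lower, and at an unadjusted p under 0.05 it gave 12 higher in AB, 9 in TU, 6 in RW and 11 in PET, with 0 lower (DESeq2 was not run within strains). Of all 17236 genes, 1541 were higher in AB, 1285 in TU, 1405 in RW and 1538 in PET by that p. In the same order, 2044, 1671, 1647 and 1930 genes were lower.

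The levels of exo1 were higher at 33 mM in each strain, with medians of 8.51 CPM in PET, 12.01 CPM in RW, 7.99 CPM in TU and 6.83 CPM in AB at 33 mM, against 3.61 CPM in PET, 1.32 CPM in RW, 2.27 CPM in TU and 2.10 CPM in AB at 0. In RW all 7 larvae at 33 mM lay above every untreated larva, and in AB 3 of 7 did. For brca2, all 5 PET larvae at 33 mM (3.09 to 12.3 CPM) lay above the 7 untreated PET larvae (0.300 to 2.82 CPM).

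The gene blm was counted in 1 of 7 untreated AB larvae, at 0.699 CPM, and in all 7 AB larvae at 33 mM (1.99 to 7.75 CPM). With so few counts at 0 the size of its fold change in AB depends on the prior count and is not given. In TU the blm groups overlapped (0.594 to 6.88 CPM at 33 mM, against 0.606 to 3.57 CPM at 0). The gene fancl, which encodes the ubiquitin ligase of the core complex, was counted in 2 of 7 untreated AB larvae and in all 7 at 33 mM (0.765 to 9.11 CPM). Over all strains its highest level was 3.22 CPM at 0 and 3.59 CPM at 1.3 mM, against 15.5 CPM at 6.6 mM and 9.11 CPM at 33 mM. Whether fancl passed the filter through dosed larvae alone was not tested. In TU, fancd2 had a median of 10.4 CPM (0.643 to 16.0 CPM) at 33 mM, against 1.59 CPM (0.323 to 2.63 CPM) at 0, and 6 of 7 treated larvae lay above every untreated one.

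In AB, ddb2 had 11.8 to 22.8 CPM at 33 mM, against 0.823 to 11.1 CPM at 0, without overlap (log2 fold change 1.96, SE 0.40, adjusted p = 0.000306, edgeR). In RW, ddb2 had 17.8 to 27.8 CPM at 33 mM, against 12.2 to 31.5 CPM at 0, and its log2 fold change was 0.03. The difference between strains itself was tested with an interaction term: 0 of 31 members passed (0.777% of genes did), and their lowest adjusted p was 0.0668, for blm (edgeR). An unadjusted p under 0.05 was found for 4 of the 31 members and for 2254 of all 17236 genes tested. With the size factors of DESeq2 0 members passed as well. In sign, 23 of 31 members were positive in all 4 strains and 1, rad17, was negative in all 4, with log2 fold changes between −1.03 and −0.21. Signs shared by all 4 strains were not counted over all genes. In single strains, between 8578 (RW) and 8739 (PET) of 17236 genes were positive.

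**Figure D4:**
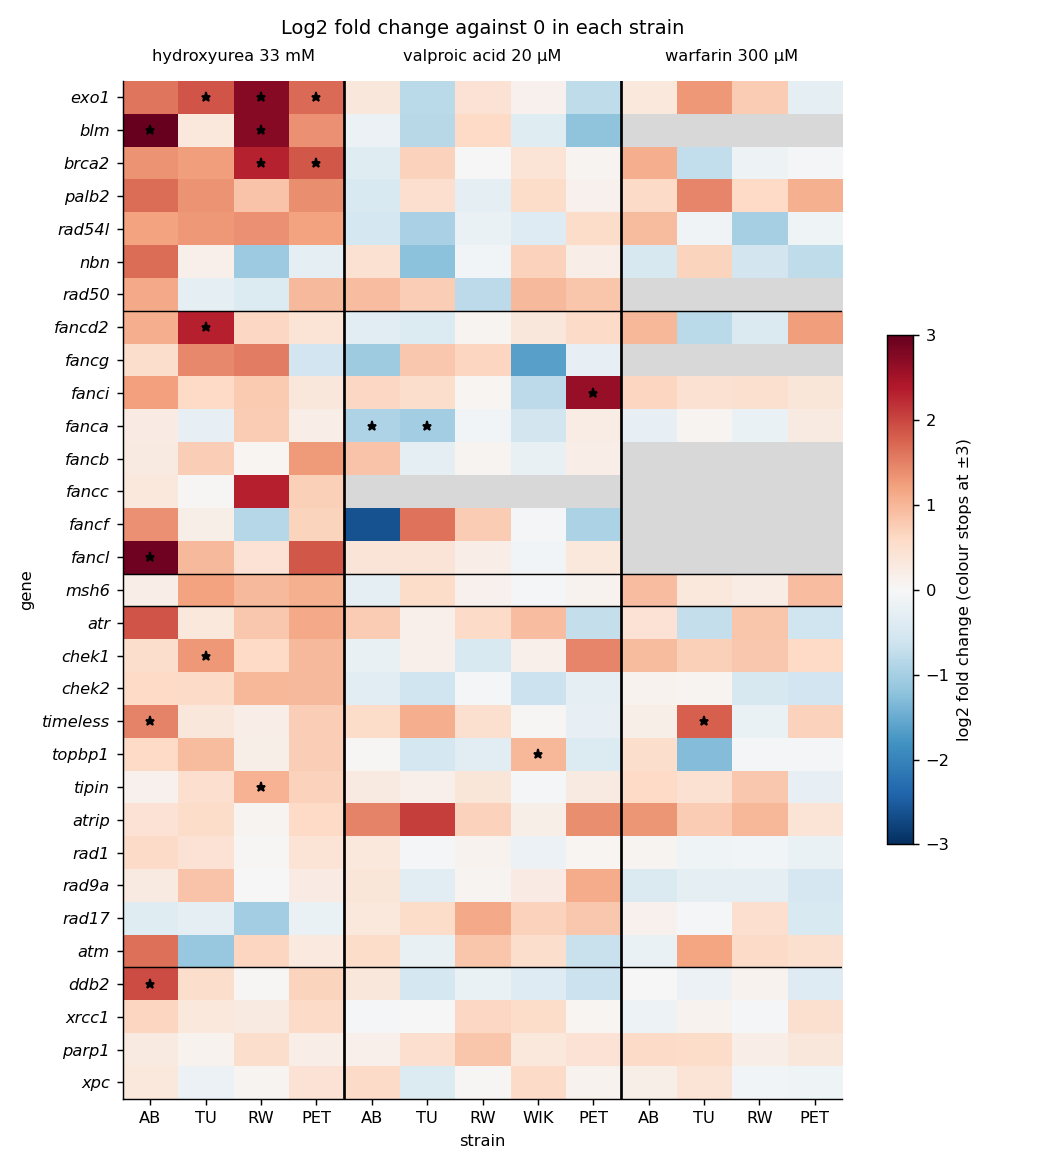
Log2 fold change against untreated larvae of the same strain (colour, stopping at ±3) for members (rows, by role) in each strain (columns) at 33 mM of hydroxyurea, 20 µM of valproic acid and 300 µM of warfarin, with stars for an adjusted p under 0.05 and grey for members not tested. Red prevails in the hydroxyurea columns, where 23 of 31 members are positive in all 4 strains (not counted over all genes), whereas signs are mixed in the others, and fanca has stars below 0 in AB and TU under valproic acid.

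At 20 µM of valproic acid, 4 of the 29 members tested passed (13.8%, against 20.5% of 18192 genes). The genes atrip, rad17 and parp1 rose (8.99% of genes rose) and fanca fell (11.5% of genes fell). The median log2 fold change was 0.15 over the members and 0.09 over all genes tested. DESeq2 called 6 members, the 4 among them (share of all genes not given). The summed level of the members was 212 to 446 CPM at 20 µM, against 239 to 429 CPM at 0, with overlap over nearly the whole range. The exocrine pancreas markers were at 227 to 1266 CPM at 20 µM, against 1125 to 22220 CPM at 0, and the median total count was 1861693.5 at 20 µM, against 2745997 at 0. The proliferation markers overlapped, with 111 to 656 CPM at 20 µM, against 73.0 to 622 CPM at 0. With the total count as a covariate the 4 calls were kept and timeless was called as well. The part of the pancreas and proliferation markers in the results was not tested.

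The ATR partner gene atrip had a median of 5.76 CPM (0 to 15.4 CPM) at 20 µM, against 3.16 CPM (0 to 11.3 CPM) at 0. It was without a count in 1 of 40 larvae at 20 µM and in 7 of 40 at 0, and its log2 fold change was 1.09 (SE 0.32, adjusted p = 0.00679, edgeR). The clamp loader gene rad17 had a median of 10.97 CPM (0 to 36.4 CPM) at 20 µM, against 6.31 CPM (0.851 to 22.6 CPM) at 0, and its log2 fold change was 0.71 (SE 0.20, adjusted p = 0.00318, edgeR). The groups overlapped for both genes.

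The gene parp1 had a median of 22.7 CPM (5.63 to 50.2 CPM) at 20 µM, against 18.1 CPM (6.10 to 27.4 CPM) at 0, and 15 of 40 larvae lay above every untreated larva. Its log2 fold change was 0.47 (SE 0.13, adjusted p = 0.00431, edgeR). All 8 RW larvae at 20 µM (27.1 to 50.2 CPM) lay above the 8 untreated RW larvae (17.1 to 25.7 CPM), and without the RW larvae the calls of parp1 (adjusted p = 0.153, edgeR) and rad17 (adjusted p = 0.0786, edgeR) were lost. Over all alternatives, parp1 was called in 18 of 20 and rad17 in 19 of 20.

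The core complex gene fanca had a median of 19.0 CPM (5.49 to 41.3 CPM) at 20 µM, against 23.0 CPM (10.46 to 93.1 CPM) at 0, and its log2 fold change was −0.46 (SE 0.13, adjusted p = 0.00336, edgeR). Within strains it fell in AB (−0.93, SE 0.26, adjusted p = 0.0129, edgeR) and TU (−1.03, SE 0.28, adjusted p = 0.00760, edgeR). With the total count as a covariate the call was lost in AB and kept in TU. In AB it had 11.7 to 41.3 CPM at 20 µM, against 32.2 to 93.1 CPM at 0, and 6 of 8 treated larvae lay below every untreated one. In PET the medians were 22.3 CPM at 20 µM, against 17.2 CPM at 0. Without the AB larvae the call over strains was lost (adjusted p = 0.0926, edgeR).

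Of the other members tested within strains at 20 µM, topbp1 was called higher in WIK (median 16.6 CPM at 20 µM, against 8.33 CPM at 0, adjusted p = 0.0465, edgeR). This call was lost with the total count as a covariate, without the filter on low counts and without larvae of a low total count. In PET fanci was called higher (adjusted p = 0.0490, edgeR), although 4 of 8 larvae at 20 µM and 5 of 8 at 0 had no count of it, and the call was lost under the same 3 alternatives. The PET median total of 1053357.5 lay under the cut for a low total, so that alternative left out many PET larvae. The gene fanci was also called in PET at 1 µM (adjusted p = 0.0322, edgeR), where 2.31% of genes rose and 9.51% were called in either direction. At 20 µM, 4.48% of genes fell in AB (5.8% in either direction), 3.2% fell in TU (6.94%), 5.68% rose in WIK (12.1%) and 1.26% rose in PET (6.77%). In RW 0 members and 6.67% of genes were called, and 3 members and 3355 of 21073 genes had an unadjusted p under 0.05. At an unadjusted p under 0.05 the interaction term gave 4 of 30 members and 4726 of 21073 genes. After adjustment it passed for 0 members (7.49% of genes), and their lowest adjusted p was 0.0548, for fanca (edgeR). It passed for fanca with the size factors of DESeq2.

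At 1 µM and 5 µM, edgeR and DESeq2 called 0 of 29 members, and 0 had an unadjusted p under 0.05, while 0.0055% of genes at 1 µM and 2.37% at 5 µM were called. Of 18192 genes, 2078 at 1 µM and 2445 at 5 µM had an unadjusted p under 0.05. Between 20 and 5 µM, 4 members were higher at 20 µM (7.47% of genes higher, 15.3% in either direction): atrip (0.93, SE 0.33), timeless (0.58, SE 0.18), parp1 (0.45, SE 0.13) and xrcc1 (0.34, SE 0.11). This count was 0 without the RW larvae and 1 without the TU or the WIK larvae.

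Under warfarin, edgeR called 0 of 19 members at 300 µM (9.6% of 13482 genes) and 0 at 150 µM (3.18%). At an unadjusted p under 0.05, 6 members were higher and 0 lower at 300 µM, and 4 were higher and 0 lower at 150 µM. Of all 13482 genes, 1498 were higher and 1271 lower at 300 µM by that p, and 964 and 796 at 150 µM. DESeq2 called 3 members at 300 µM (atrip, chek1 and msh6) and 0 at 150 µM. Its share of all genes is not given, so these counts cannot be set against the shares of edgeR. For chek1 the median was 6.16 CPM (0 to 12.7 CPM) at 300 µM, against 3.08 CPM (0 to 9.51 CPM) at 0, with a log2 fold change of 0.78 (SE 0.27, adjusted p = 0.0526, edgeR). For atrip the median was 4.22 CPM (0 to 12.4 CPM) at 300 µM, against 1.89 CPM (0 to 7.86 CPM) at 0, with a log2 fold change of 0.89 (SE 0.33, adjusted p = 0.0707, edgeR). The groups overlapped for both. The other 4 with an unadjusted p under 0.05 were msh6 (0.63, SE 0.24), timeless (0.48, SE 0.19), parp1 (0.42, SE 0.16) and tipin (0.39, SE 0.17), and exo1, the largest change under hydroxyurea, had 0.35 (SE 0.35).

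The summed level of the members was 148 to 233 CPM at 300 µM (median 192 CPM), against 131 to 207 CPM at 0 (median 172 CPM), with overlap. The proliferation markers were at 220 to 446 CPM at 300 µM, against 147 to 367 CPM at 0, and the exocrine pancreas markers at 662 to 4405 CPM at 300 µM, against 2784 to 12800 CPM at 0. Their part was not tested. Within strains, timeless was called in TU (1.22% of genes higher, 3.03% in either direction), with 3.16 to 15.5 CPM at 300 µM, against 0 to 7.11 CPM at 0 (log2 fold change 1.79, SE 0.45, adjusted p = 0.00913, edgeR). It was also called in TU at 150 µM (1.81, SE 0.44, adjusted p = 0.0214, edgeR), where 0.465% of genes rose and 0.735% were called in either direction. Both calls rest on the same untreated TU larvae. The untreated level of timeless differed between the strains of this experiment (adjusted p = 0.0412, edgeR), as described below. The call at 300 µM was lost without larvae of a low total count, and TU had the lowest median total of the strains there (1059273). At 300 µM edgeR called 0 of 24 members in AB (2 at an unadjusted p under 0.05, 2.7% of genes called), RW (1 and 1.91%) and PET (1 and 0.884%). Of 14826 genes, 1674 in AB, 1339 in RW and 1199 in PET had an unadjusted p under 0.05. The interaction term passed for 0 of 24 members (0.391% of genes), with a lowest adjusted p of 0.318 among them (edgeR). At an unadjusted p under 0.05 it gave 1 member and 1101 of 14826 genes. Between 300 and 150 µM 0 members passed (1.25% of genes), with 4 members and 1194 of 13482 genes at an unadjusted p under 0.05 (edgeR, DESeq2 not run).

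Genes of neighbouring processes were counted beside the members, from lists chosen with earlier results known. At 33 mM of hydroxyurea, 27 of 65 other repair genes rose and 1 fell, 25 of 30 replication genes rose and 14 of 14 mitosis genes rose, where 10.3% of all genes tested rose. The median log2 fold changes were 0.40, 0.75 and 1.23 in the same order of lists, against 0.70 for the members. The largest change among the other repair genes was that of neil3, a glycosylase of replicating DNA (1.54, SE 0.25). In the replication list they were cdc45 (1.55, SE 0.24) and mcm10 (1.47, SE 0.35), which act with the replicative helicase. In the mitosis list they were top2a (1.87, SE 0.12) and cdk1 (1.68, SE 0.10). The repair gene that fell was mre11a, the nuclease partner of rad50 and nbn (−1.03, SE 0.14), which was singled out after its value was seen.

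At 20 µM of valproic acid, 6 of 70 other repair genes rose and 2 fell, 2 of 30 replication genes rose (mcm2 and mcm6) and 1 of 15 mitosis genes rose (cdc20), where 8.99% of all genes rose and 11.5% fell. The largest changes among repair genes were mre11a (−1.02, SE 0.10) and ercc4, an excision nuclease subunit (0.86, SE 0.18). At 300 µM of warfarin, 5 of 51 other repair genes and 8 of 26 replication genes rose, where 626 of all 13482 genes rose and 9.6% were called in either direction. Of the mitosis genes 0 of 14 passed, and 2 had an unadjusted p under 0.05, as had 2769 of 13482 genes (edgeR, DESeq2 not counted). The largest called repair genes were ercc3, a helicase of excision repair (0.82, SE 0.23), and usp1, which removes ubiquitin from FANCD2 (0.58, SE 0.18). Those of the replication list were pold1 (0.90, SE 0.22) and pold2 (0.61, SE 0.19), subunits of a replicative polymerase.

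Untreated larvae of the strains differed in some members. In the valproic acid experiment 9 of 27 members tested differed between the 5 strains (44.3% of genes did): exo1, nbn, fanca, msh6, chek1, timeless, topbp1, ddb2 and xpc. With the total count as a covariate, 4 passed (exo1, fanca, chek1 and ddb2). In the hydroxyurea experiment 2 of 20 differed (12% of genes), ddb2 and xpc, and 1 with the covariate, ddb2. In the warfarin experiment 1 of 14 differed (5.98% of genes), timeless, and 0 with the covariate. These shares of genes are those without the covariate, and the shares with it are not given here.

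The order of the strains for ddb2 was not the same in the experiments. In untreated larvae of the valproic acid experiment, ddb2 averaged 81.3 ± 26.2 CPM in PET, 45.7 ± 12.6 CPM in WIK, 27.8 ± 5.12 CPM in RW, 25.8 ± 10.8 CPM in TU and 13.4 ± 3.70 CPM in AB (SD, 8 larvae each; adjusted p = 2.89e-11, edgeR). The 8 PET larvae (51.3 to 120 CPM) lay above all RW, TU and AB larvae there. In those of the hydroxyurea experiment, ddb2 averaged 5.04 ± 2.36 CPM in PET, 23.7 ± 9.26 CPM in RW, 22.4 ± 3.07 CPM in TU and 4.93 ± 3.36 CPM in AB (SD, 4 to 7 larvae; adjusted p = 6.20e-07, edgeR), and the 7 PET larvae (2.51 to 8.497 CPM) lay below all RW and TU larvae. In those of the warfarin experiment the means were between 14.4 CPM in RW and 17.9 CPM in PET. Levels were normalised within an experiment, each experiment used its own larvae, and the difference between experiments was not tested.

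The ranges of RW and TU overlapped in all 3 experiments. Of the other members, chek1 was lowest in PET in the valproic acid experiment (median 0.760 CPM, against 9.72 CPM in RW, adjusted p = 0.000126, edgeR), and fanca was highest in AB there (median 40.4 CPM, adjusted p = 2.29e-05, edgeR). PET was the shallowest strain of that experiment (median total 1053357.5, all doses) and RW the deepest (6718419.5), so the chek1 level in PET rests on few counts.

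**Figure D5:**
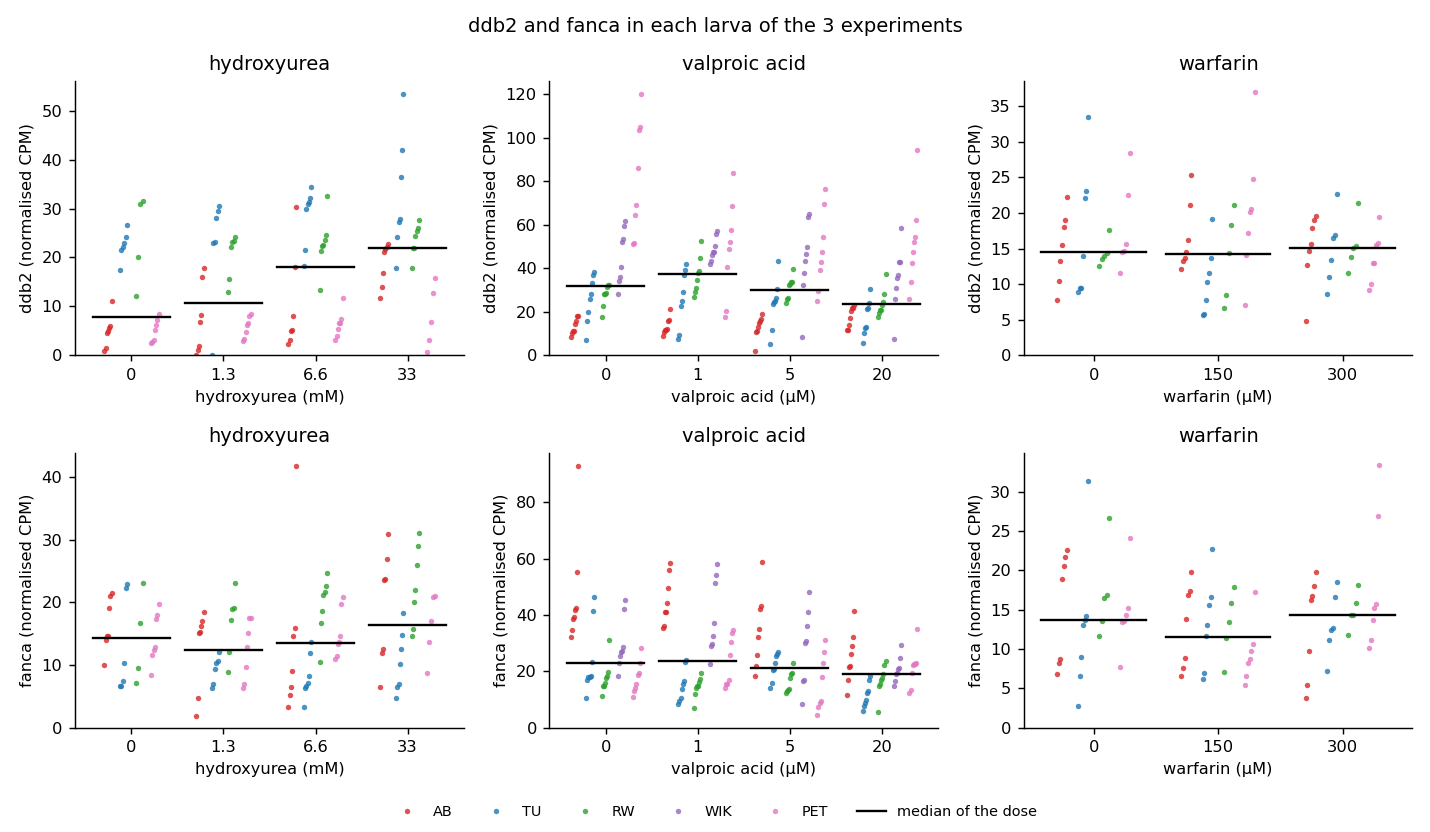
Normalised CPM (vertical axis from 0) of ddb2 (upper row) and fanca (lower row) in each larva by dose (horizontal axis, mM or µM) in the 3 experiments, coloured by strain, with a black line at the median of a dose. Untreated PET larvae include the highest ddb2 levels in the valproic acid experiment (51.3 to 120 CPM) and low ones in the hydroxyurea experiment (2.51 to 8.497 CPM), and untreated AB larvae have the highest median of fanca in the valproic acid experiment (40.4 CPM).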

How the data were processed

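Single whole larvae of the 3 experiments were measured by Lasy-Seq with paired-end sequencing. The authors deposited 1 table of estimated counts (expected counts) for each gene in each larva, without normalization. The submitters' processing notes name GRCz11 and Seurat 5.1.0, and the aligner is not given in the sources used here. No molecular identifiers are mentioned, so counts are not independent molecules, and strand use in counting is not stated. Of the values, 52 in 34 genes were not whole, none of them in a member, and all were rounded. No larvae had identical values.

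The members, lists and tests were chosen with earlier results of these data known. Analyses used R 4.3.3, edgeR 4.0.16, limma 3.58.1 and DESeq2 1.42.0. Within an experiment, genes were kept by filterByExpr (minimum count 10, minimum total 15), scaled by TMM and fitted by edgeR's quasi-likelihood method, with strain and dose as terms (over strains), with 1 mean per strain and dose (within strains and the interaction), or with strain alone (untreated larvae). An adjusted p under 0.05 was called. Levels were given for the 12 called members with the largest changes for hydroxyurea, the 4 for valproic acid, and members called at a lower dose, and from each other list the 2 largest called changes were named, apart from a few genes and 1 list that are not reported here. Medians by strain and the values of chek1 and atrip under warfarin were added after their values were seen. The scripts were tested on simulated data. The alternatives were DESeq2's size factors and Wald test, upper quartile factors, no filter, larvae under 0.5 times the experiment's median total left out, the log10 total as a covariate, a block for the larva number, and each strain and each larva number left out. No sequences or coordinates were used.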

Additional observations from a re-analysis of the deposited data

Results flagged for a closer look

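Within groups of 1 strain and 1 dose, the lowest and highest larvae were checked for the members described by strain and for the summed level, at 0 and at the highest dose. A larva stood apart in 16 of 164 groups, where chance flags about 1 in 20 groups of normally distributed values, and some of these groups hold levels near 0 CPM. In the hydroxyurea experiment these were single untreated larvae with a high level of exo1 in RW (4.63 CPM, next 1.43 CPM), brca2 in TU (7.10 CPM, next 2.30 CPM), fancd2 in AB (6.02 CPM, next 1.99 CPM), fancl in PET (2.38 CPM, next 0.901 CPM) and chek1 in PET (14.8 CPM, next 4.51 CPM). One untreated AB larva had blm at 0.699 CPM where the others had 0, and an untreated TU larva had a low tipin level (6.62 CPM, next 12.4 CPM). At 33 mM a TU larva had a high blm level (6.88 CPM, next 3.30 CPM).

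In the valproic acid experiment untreated larvae stood apart for fanca in AB (93.1 CPM, next 55.3 CPM) and RW (30.9 CPM, next 19.7 CPM) and for fanci in PET (4.00 CPM, next 1.48 CPM). At 20 µM these were fanca in PET (35 CPM, next 22.9 CPM), fanci in PET (30.4 CPM, next 11.7 CPM), topbp1 in TU (68.2 CPM, next 15.9 CPM) and parp1 in AB (34.3 CPM, next 23.9 CPM), all high, and the summed level of the members in TU, where 1 larva was low (212 CPM, next 285 CPM).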

How the results depend on the processing

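Of 432 counts of called members under alternatives, 331 stayed within 1.5 times the count reported and 101 did not. Counts of 0 that stayed at 0 are among the 331. Over strains at the highest dose of each compound, no log2 fold change of a called member turned its sign. Signs were not compared for the other tests. At 33 mM of hydroxyurea, exo1, rad54l, brca2, msh6, chek1 and timeless were called in all 18 alternatives, and 9 members of 22 tested were called without PET, where 16 of 25 were called with it. Among the 18, the adjusted p of exo1 was at most 3.81e-06, whereas that of chek1 reached 0.0498 without TU and that of msh6 0.0355 without PET (edgeR). With any larva number left out, 12 to 15 of 24 to 26 tested were called. Of the 16, blm could be tested in 12 of the 18 alternatives, palb2 in 17 and atr in 10. Within strains there, leaving out a larva number gave 3 to 6 calls in AB, 1 to 3 in PET, 1 to 4 in RW and 1 to 4 in TU. PET had 2 calls, 1 with the total count as a covariate and 4 without low larvae (under 0.5 times the median total). RW had 4 calls, 2 without the filter and 2 without low larvae, and TU had 3 calls, 1 with the covariate. At 6.6 mM the 1 call became 0 without PET, RW or TU, and 0 to 1 with a larva number left out. Between 33 and 6.6 mM, 1 member was called without PET or RW and 2 to 4 with a larva number left out.

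At 20 µM of valproic acid 4 members were called, 2 without RW and 4 to 5 with a larva number left out. Within strains, AB had 0 calls with the covariate (0 to 2 over larva numbers), PET 0 with the covariate and 0 without low larvae (0 to 1), RW 1 with DESeq2's size factors and 1 without low larvae, TU 2 without low larvae (1 to 2) and WIK 0 with the covariate, without the filter and without low larvae (0 to 2). Between 20 and 5 µM, 0 were called without RW and 1 without TU or WIK (1 to 4 over larva numbers). The interaction had 1 call with DESeq2's size factors, 2 without the filter and 1 without low larvae (0 to 3). At 20 µM over strains DESeq2's size factors put the median log2 fold change of all genes at 0.12, against 0.09 with TMM. At 300 µM of warfarin the count of 0 became 3 with DESeq2's Wald test, 1 with its size factors, 2 without PET, 1 without RW, 2 without TU and 2 without low larvae (0 to 1 over larva numbers), and the 1 call in TU became 0 without low larvae (0 to 1). Between untreated strains the covariate gave 4 members with valproic acid (8 to 11 over larva numbers), 1 with hydroxyurea (1 to 2) and 0 with warfarin (0 to 1). The causes were not tested.

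Larva numbers are shared between doses, but larvae with the same number did not deviate together (mean r 0.0111, 0.000478 and 0.00337 for valproic acid, hydroxyurea and warfarin). With the larva number as a replicate block, 15 members were called at 33 mM of hydroxyurea, 0 at 6.6 mM, 2 between these doses, and 1 each in PET and RW. For valproic acid the block gave 2 calls in AB, 2 in TU, 0 in WIK, 0 in PET and 1 for the interaction. By the filter on low counts, 8 members with hydroxyurea, 4 with valproic acid and 14 with warfarin could not be tested over strains.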
